A study of Mus musculus with 9 samples.

Results

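The second stage of the ovulatory response was described by comparing granulosa cells 6 h after hCG with granulosa cells 1 h after hCG, 3 libraries against 3, or 6 of the 9 RNA-seq libraries of the study. Granulosa cells are the somatic cells that line the ovarian follicle and surround the oocyte. All 9 libraries came from ovaries of Kunming mice at postnatal day 21 primed with PMSG (pregnant mare serum gonadotropin, 5 IU), a hormone that acts like FSH and grows the follicles. For the 1 h and 6 h libraries, hCG (human chorionic gonadotropin, 5 IU), a ligand of the LH receptor that starts ovulation, was given 48 h after PMSG. The other 3 libraries, at 0 h, had PMSG alone and give the level before hCG. Whether replicate libraries are separate animals, pools or repeats is not in the labels. A p-value therefore sets the difference between times only against the spread among libraries of a time, and that spread may be technical. Without hCG-free libraries collected at 1 h and 6 h, hours after hCG and time of day cannot be told apart.

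The LH surge raises cAMP in granulosa cells, and protein kinase A then acts on a small set of signalling and transcription factor genes within minutes. EGF-like ligands shed from the mural cells carry the signal to cells with few LH receptors, and MAP kinase activity in those cells stops the growth programme of FSH. Later genes build the hyaluronan matrix around the oocyte, make prostaglandins and proteases that open the follicle wall, and turn the cell from estradiol to progesterone output. The gene lists below follow that order, from signalling genes to the genes of the growing follicle and then to effector genes.

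Granulosa markers had the highest summed level of the marker lists in both groups, though the lists differ in their genes. All 12 granulosa markers examined reached 1 FPKM (the authors' unit: fragments for each kilobase of a transcript, relative to all mapped fragments) in at least 3 libraries. The 0 h or 1 h libraries alone could meet that rule. All 12 of 12 were called lower at 6 h, 11 of them by 2-fold or more. Their summed level was 8403 to 12480.0 FPKM at 1 h and 3512 to 3835 at 6 h, against 315 to 468 and 175 to 199 FPKM for theca and stroma markers. Summed oocyte markers stood at 78.7 to 103 and 116 to 175 FPKM, endothelial markers at 31.3 to 33.6 and 36.4 to 48.5, and leukocyte markers at 25.9 to 40.6 and 19.8 to 27.3. Over all genes tested, 26.7% were called higher and 26.9% lower. Of the marker lists, 7 of 14 theca and stroma markers tested were called lower and 1 higher, and 7 of 15 oocyte markers higher and 1 lower. Of the others, 4 of 10 endothelial markers were higher, and 1 of 7 leukocyte, 1 of 4 erythroid and 2 of 6 surface epithelium markers lower. These counts turned on single libraries: oocyte markers higher went to 3 without 1 h replicate 2 and 2 without 6 h replicate 3, theca and stroma markers lower to 4 without replicate 3 of either time, and endothelial markers higher to 2 without replicate 1 or 3 at 1 h or replicate 1 or 2 at 6 h. Surface epithelium markers lower went to 0 without 1 h replicate 3 or 6 h replicate 2, and to 1 without 1 h replicate 1 or 2 or 6 h replicate 3. The part of other cells in the changes below was not tested. In bulk RNA, fewer cells of a type and less RNA per cell cannot be told apart. Within a group, pairs of libraries correlated across genes at r = 0.982 to 0.988, and 1 h with 6 h libraries at 0.904 to 0.915, where genes are not independent replicates. Replicate 2 at 1 h was the lowest of the 3 libraries at 1 h in 54.4% of the genes that were at least 2-fold lower at 6 h, and in 38.8% of all genes tested. Replicate 2 at 6 h was the highest of its group in 55.4% of the genes at least 2-fold higher at 6 h, against 34.2% of all genes tested, and the lowest in 46.6% of those at least 2-fold lower, against 28.3%. The sum of FPKM was 527034 to 570986 at 1 h and 513434 to 539279 at 6 h.

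Between 1 h and 6 h, 53.5% of the genes tested were called in either direction, and a gene not called is not shown to be unchanged. Of 14535 genes tested, 3879 (26.7%) were higher at 6 h and 3904 (26.9%) lower, at a Benjamini-Hochberg adjusted p below 0.05 in limma on log2(FPKM + 1). Without 6 h replicate 2 the counts were 3280 higher and 3371 lower, the lowest of all alternatives run. The median log2 change over all genes was close to 0 (−0.000753). At 2-fold or more, 863 genes (5.94%) were higher and 901 (6.2%) lower, and 52 were higher and 28 lower by 8-fold or more. Of the genes called, 374 higher passed the filter on low values (1 FPKM in 3 libraries) only through the 6 h libraries and 138 lower only through the 1 h libraries, so that these had to differ. Sult1e1, Lyve1, Npy, Fosl1, Cldn1, Cxcl2 and Aldh1a3 are among the former and Adrb1 is among the latter. The p-values and places in list counts of all such genes carry no weight. Such rises numbered 1 each in the immediate-early, cAMP, hyaluronan, prostaglandin, neuropeptide and steroid inactivation lists. The hypoxia, junction, YAP, clock and heat-shock lists also held 1 each. The protease, secretion and BMP lists held 2 each. Falls that passed only through the 1 h libraries numbered 1 each in the immediate-early, steroid inactivation, antioxidant, BMP and WNT lists. The solute carriers held 4 such rises and 3 such falls, and the Zfp genes 2 such rises. The 3 libraries of a time lay wholly above those of the other in 30.5% of genes at 6 h and in 30% at 1 h. The shares of 26.7% and 26.9% are the background against which each list count, above and below, is read.

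**Figure D1:**
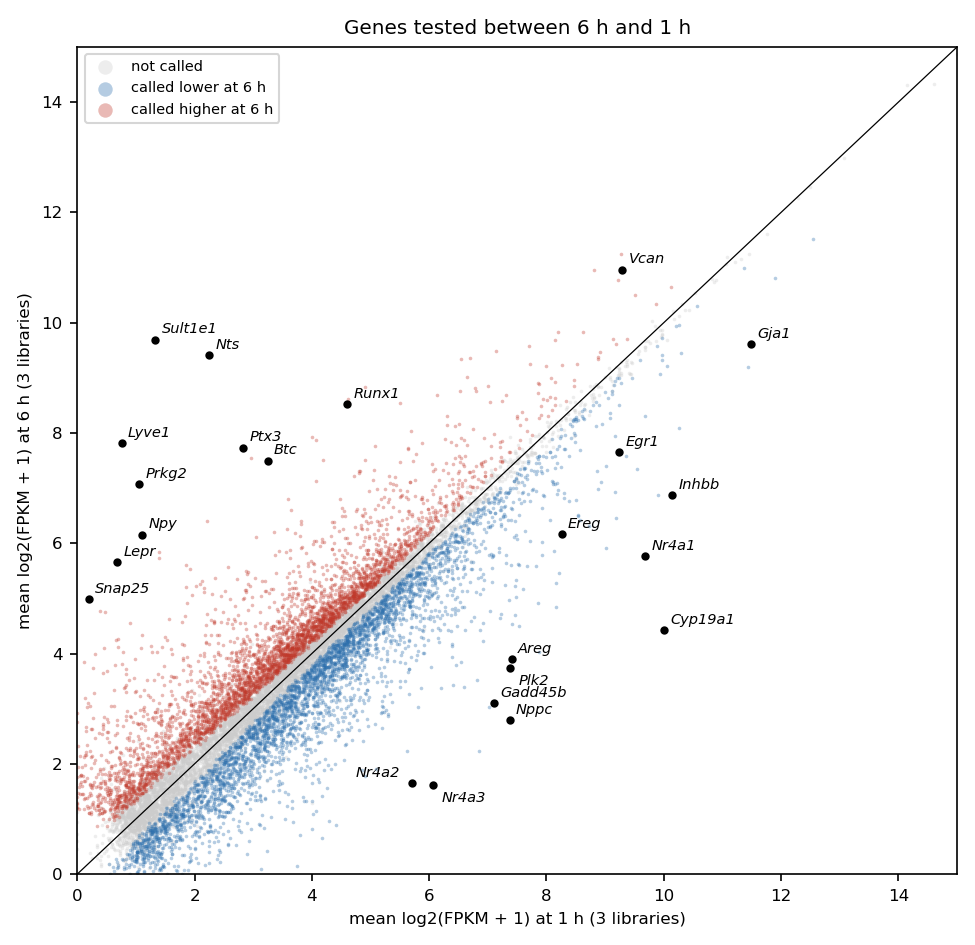
Mean log2(FPKM + 1) of the 3 libraries at 1 h (x axis) and at 6 h (y axis) for the 14535 genes tested, with genes called higher at 6 h in red, called lower in blue and the rest in grey. The labelled genes are named in the text; Sult1e1, Nts and Lyve1 lie far above the diagonal and Cyp19a1, Nppc and the 3 Nr4a genes far below it.

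Genes were named by rule from those called, at 5 FPKM or more in the higher group and without overlap between libraries. The 15 highest changes were Sult1e1, Nts, Lyve1, Prkg2, Npy, Lepr, Ptx3, Snap25, Alcam, Arl4d, Btc, Rnf125, Spp1, Rhox8 and Rnf180, with log2 changes from 3.93 to 8.36. They include an estrogen sulfotransferase, a pair of neuropeptide precursors, a hyaluronan receptor, a cGMP-dependent kinase, the leptin receptor and a synaptic fusion protein. The 15 lowest included Cyp19a1, Ccrl2, Nppc, Nr4a3, Nr4a2, Gadd45b, Mro, Nr4a1, Plk2, Tnfsf11, Adrb1, Areg, Slc24a4 and Rasgef1b, with log2 changes from −3.31 to −5.58. Among these are the estradiol-forming enzyme, the peptide that keeps the oocyte in meiotic arrest, and the 3 members of one orphan nuclear receptor family. Outside the lists below, the cell adhesion gene Alcam had 9.21, 4.48 and 7.34 FPKM at 1 h and 165, 217 and 176 at 6 h, a log2 change of 4.58 ± 0.22 (SE). The secreted phosphoprotein gene Spp1 gave 21.1, 34.9 and 17.8 and 364, 459.9 and 357 FPKM (3.99 ± 0.39), and the homeobox gene Rhox8 26.6, 26.5 and 34.1 and 441, 438 and 493 (3.94 ± 0.11). All 3 libraries at 6 h were above all 3 at 1 h for these genes, with limma adjusted p of 3.42e-07, 2.26e-05 and 1.37e-08. The chemokine receptor-like gene Ccrl2 moved the other way, from 154, 75.6 and 127 FPKM at 1 h to 4.21, 3.59 and 3.41 at 6 h (−4.60 ± 0.21, adjusted p = 2.90e-07). The beta-1 adrenergic receptor gene Adrb1 stood at 25.4, 8.14 and 22.97 FPKM at 1 h, where replicate 2 was lowest, and 0.505, 0.565 and 0.629 at 6 h (−3.52 ± 0.35, adjusted p = 2.46e-05). Adrb1 passed the filter on low values only through its 1 h libraries and so had to differ.

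Immediate-early transcription factors, which cells induce without new protein synthesis, mostly fell back between 1 h and 6 h. Of 27 listed members, all tested, 18 were called lower and 6 higher, with a median log2 change of −0.63. The orphan nuclear receptor gene Nr4a1 (ENSMUSG00000023034, protein coding, chromosome 15, 101254269 to 101274795, mm10) had 993, 568 and 980.1 FPKM in the 3 libraries at 1 h and 62.7, 52.9 and 45.7 at 6 h. Before hCG it stood at 26.5, 39.2 and 33.3 FPKM, so the 6 h libraries lay just above the 0 h libraries and far below those at 1 h. Its log2 change from 1 h to 6 h was −3.92 ± 0.22 (adjusted p = 7.52e-07). Nr4a3 gave 69.4, 59.7 and 70.3 FPKM at 1 h and 2.03, 2.80 and 1.47 at 6 h (−4.46 ± 0.16, adjusted p = 6.85e-08), and Nr4a2 66.1, 36.8 and 55.7 and 2.19, 2.01 and 2.20 (−4.07 ± 0.19, adjusted p = 2.65e-07). No library at 6 h reached any library at 1 h for these genes, and replicate 2 had the lowest 1 h value of each.

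The promoters of these genes carry short matches to the cAMP response element, the DNA site of CREB-family factors, and a few are shown for that reason. RefSeq windows of 300 bases (250 before and 50 after a start; GRCm38.p6) were available for 21 of the 27 immediate-early members. The half-site TGACG, searched on both strands and also counted inside the full element TGACGTCA, occurred in 21 of their 30 windows (70%; a gene can have several starts), of 15 genes, in 20.81% of all 32851 windows and in 30.45% of windows of genes tested. It occurred in 22.89% of windows of genes called at least 2-fold lower and in 25.68% of those called at least 2-fold higher. Below, the bases before the start that lie outside annotated exons are printed 5′ to 3′ on the gene's strand, with TGACG, its reverse complement CGTCA and TGACGTCA in capitals, and in Nts also the AP-1 match TGAGTCA. Nr4a1 is at chr15:101266596-101266845 (plus strand), Nr4a3 at chr4:48045055-48045152 (plus), Areg, an EGF-like ligand described below, at chr5:91139349-91139598 (plus), and Nts, a late gene, at chr10:102490487-102490668 (minus).
Nr4a1: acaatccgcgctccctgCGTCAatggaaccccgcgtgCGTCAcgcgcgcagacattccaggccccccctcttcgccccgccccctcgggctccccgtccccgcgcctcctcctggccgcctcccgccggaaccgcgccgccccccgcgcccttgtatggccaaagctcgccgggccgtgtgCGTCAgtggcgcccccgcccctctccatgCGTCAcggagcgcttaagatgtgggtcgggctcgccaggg
Nr4a3: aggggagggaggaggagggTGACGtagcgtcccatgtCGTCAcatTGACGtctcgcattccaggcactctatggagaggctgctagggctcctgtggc
Areg: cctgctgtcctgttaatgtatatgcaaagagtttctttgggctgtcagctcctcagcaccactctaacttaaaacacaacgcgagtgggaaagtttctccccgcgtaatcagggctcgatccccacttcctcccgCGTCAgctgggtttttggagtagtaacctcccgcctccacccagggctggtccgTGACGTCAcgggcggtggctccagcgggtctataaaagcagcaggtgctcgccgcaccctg
Nts: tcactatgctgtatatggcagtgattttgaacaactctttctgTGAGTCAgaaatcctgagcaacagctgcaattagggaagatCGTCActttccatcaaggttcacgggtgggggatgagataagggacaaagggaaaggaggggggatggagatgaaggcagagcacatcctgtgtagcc
The Nr4a1 stretch holds 4 half-sites and the Nr4a3 stretch 3, while Areg holds the full element, 61 to 54 bases before the start, and a further half-site. Nts, which rose late, holds 1 half-site and 1 AP-1 match (TGANTCA, found in 7.808% of all windows). A match is a description of the letters and not of binding.

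Other immediate-early members followed the Nr4a genes less far down. Egr1, a zinc finger factor, stood at 629.6, 516 and 674 FPKM at 1 h and 219.6, 199 and 182 at 6 h, a log2 change of −1.59 ± 0.12 (adjusted p = 5.01e-06). The AP-1 subunit gene Junb had 623, 471 and 643 and 124, 130.3 and 112 FPKM (−2.23 ± 0.12, adjusted p = 5.58e-07), and Fos 287, 312 and 265 and 196, 178 and 152 (−0.71 ± 0.13, adjusted p = 0.00108). For Fos the 6 h libraries overlapped those at 0 h (163, 164 and 215 FPKM). The 6 members that rose were Fosl1, Egr3, Ier5, Klf2, Klf6 and Csrnp1; of these Csrnp1 lies outside the naming rule and is named after its value was seen. Fosl1, an AP-1 subunit, gave 0.949, 1.22 and 0.805 FPKM at 1 h and 7.04, 6.86 and 5.90 at 6 h, a log2 change of 1.93 ± 0.17 (adjusted p = 1.09e-05). Egr3 stood at 0.665, 0.483 and 0.252 FPKM at 0 h, 13.8, 12.5 and 17.6 at 1 h and 29.99, 41.6 and 32.1 at 6 h (1.18 ± 0.16 from 1 h to 6 h, adjusted p = 2.31e-04). Thus Egr1 and Egr2 peaked at 1 h among the sampled times and Egr3 was highest at 6 h, with no overlap of the 1 h and 6 h libraries for any of the 3.

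**Figure D2:**
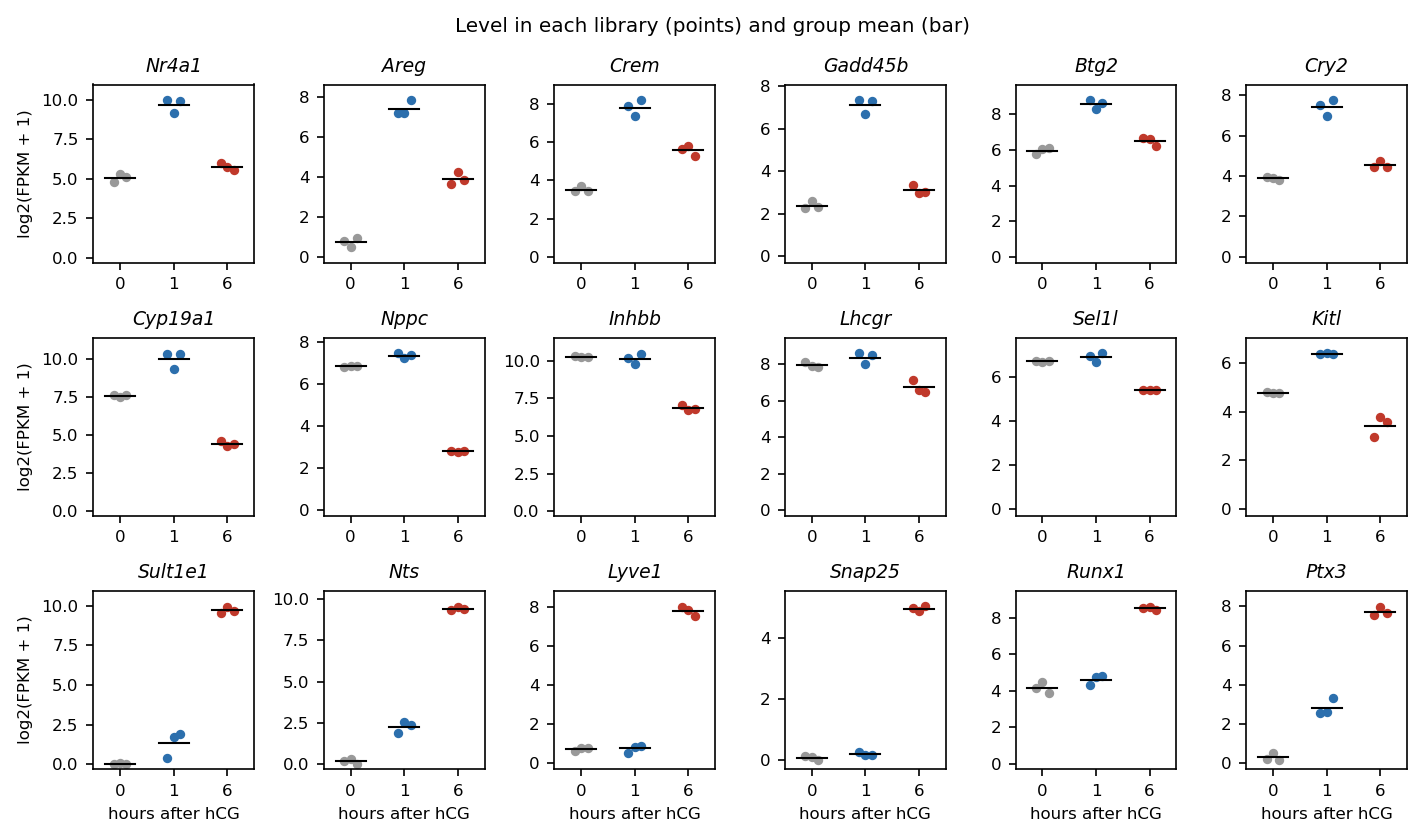
Level of 18 genes in each library, as log2(FPKM + 1) on the y axis against hours after hCG (0, 1 and 6 h; grey, blue and red points, 3 libraries each), with the group mean as a bar. The first row shows signalling genes that are highest at 1 h, the second row genes that are lowest at 6 h, and the third row genes that are highest at 6 h.

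Regulators of cAMP signalling were called in both directions. In the cAMP list, 11 of 26 members tested fell and 5 rose, with a median of −0.08; without 1 h replicate 1, 3 rose. Crem, whose short product ICER represses cAMP-responsive genes, had 237, 162 and 294 FPKM at 1 h and 49.8, 55.3 and 38.5 at 6 h (−2.22 ± 0.20, adjusted p = 1.49e-05). Sik1, a kinase that holds CREB coactivators in the cytoplasm, gave 216, 122 and 213 and 32.1, 34.1 and 28.4 FPKM (−2.46 ± 0.23, adjusted p = 1.67e-05). Both genes stayed above their 0 h libraries at 6 h, by a log2 change of 2.07 ± 0.20 for Crem and 1.59 ± 0.23 for Sik1, in a comparison that shares the 6 h libraries. The regulatory subunit gene of protein kinase A, Prkar2b, was abundant at 1 h (1254, 1046 and 1394 FPKM) and lower in all 3 libraries at 6 h (312, 253 and 258; −2.16 ± 0.12, adjusted p = 7.46e-07). The phosphodiesterase genes Pde7b (−1.56 ± 0.21) and Pde10a (−1.40 ± 0.27) fell as well. Prkg2, the cGMP-dependent kinase, went the other way, from 1.07, 0.960 and 1.22 FPKM to 117, 167 and 120.5, a log2 change of 6.01 ± 0.16 (adjusted p = 9.26e-09).

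Of 16 MAP kinase feedback inhibitors tested, 8 rose and 2 fell, with a median log2 change of 0.32. Errfi1, which binds and blocks the EGF receptor, stood at 9.03, 10.4 and 7.9997 FPKM at 0 h, 47.3, 43.2 and 57.8 at 1 h and 209, 212 and 201 at 6 h. Its libraries did not overlap between any of the 3 times, and the log2 change from 1 h to 6 h was 2.06 ± 0.11 (adjusted p = 6.64e-07). The phosphatase gene Dusp5 (0.93 ± 0.16) and the Ras inhibitor genes Spred2 (0.71 ± 0.10) and Spred3 (0.62 ± 0.11) rose, while Dusp8 (−0.69 ± 0.15) and Spry1 (−0.68 ± 0.14) fell.

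The ligands of the EGF receptor changed places. Areg (ENSMUSG00000029378, chromosome 5, 91139599 to 91148432) had 0.743, 0.408 and 0.913 FPKM at 0 h, 146, 144 and 228 at 1 h and 11.4, 17.8 and 13.1 at 6 h. Its log2 change from 1 h to 6 h was −3.51 ± 0.21 (adjusted p = 9.65e-07), with every 6 h library below every 1 h library and above every 0 h library. Ereg, its neighbour on chromosome 5, gave 305, 249.6 and 373 and 73.2, 88.2 and 55.4 FPKM (−2.09 ± 0.19, adjusted p = 1.42e-05). Btc, a further ligand of the same receptor, stood at 6.76, 7.25 and 12.3 FPKM at 1 h and 179.5, 206 and 157 at 6 h (4.25 ± 0.19, adjusted p = 2.24e-07). On the FPKM scale, which is per length, Btc was therefore the lowest of the 3 ligands at 1 h and the highest at 6 h, in every library. Of the 12 members of this list that were tested, 5 rose and 4 fell. The receptor gene Egfr itself rose slightly (0.35 ± 0.10, adjusted p = 0.012), and Rhbdf2 rose by more (1.21 ± 0.09, adjusted p = 3.33e-06), whose product carries the ligand sheddase to the cell surface.

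Antiproliferative and stress genes separated within their lists. Btg1 and Btg2, cofactors of mRNA deadenylation that slow cell division, had 162, 157 and 215 and 432, 307 and 389 FPKM at 1 h and 37.2, 39.8 and 31.9 and 98.96, 96.2 and 74.1 at 6 h. Their log2 changes were −2.25 ± 0.12 and −2.05 ± 0.15 (adjusted p = 6.14e-07 and 3.77e-06). Of the 9 members of this list, 4 fell and 4 rose, the latter including Zfp36 (0.61 ± 0.14), which destabilizes AU-rich mRNAs, and the endonuclease gene Zc3h12a (0.85 ± 0.17). Gadd45b, a stress-induced activator of p38 and JNK kinases, gave 161, 102 and 155 FPKM at 1 h and 9.22, 6.73 and 7.07 at 6 h (−4.0002 ± 0.18, adjusted p = 2.27e-07). The polo-like kinase gene Plk2 stood at 190.5, 121 and 198 and 10.999, 14.8 and 11.3 FPKM (−3.65 ± 0.18, adjusted p = 3.91e-07). Within NF-kappaB signalling, the inhibitor gene Nfkbia rose from 15.2, 18.9 and 15.9 FPKM to 61.9, 62.4 and 59.3 (1.82 ± 0.09, adjusted p = 4.19e-07) and Bcl3 rose by 1.61 ± 0.21, while the ubiquitin-editing gene Tnfaip3 fell (−1.07 ± 0.17). The list as a whole had 5 members higher and 5 lower of 16.

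**Figure D3:**
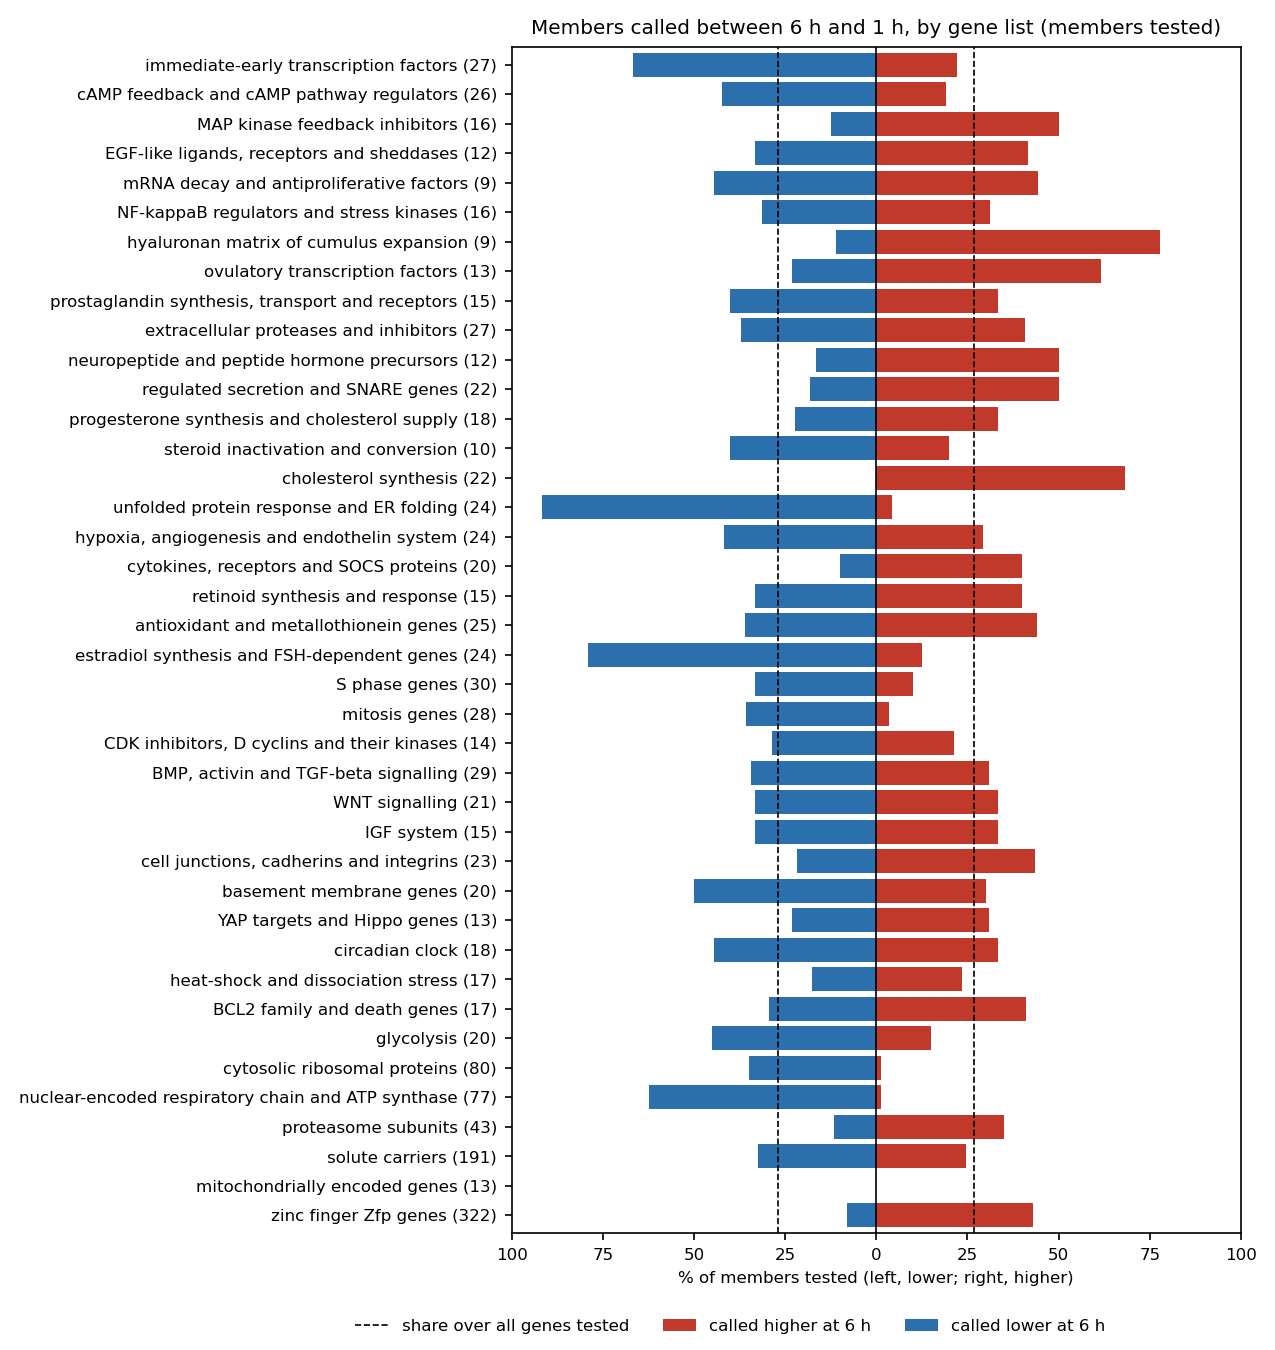
Share of the tested members of each gene list (number tested in brackets) that were called lower at 6 h (blue, to the left) or higher (red, to the right), in % of members; dashed lines mark the shares over all 14535 genes tested, 26.9% lower and 26.7% higher. The unfolded protein response, estradiol and immediate-early lists reach furthest to the left among the lists drawn, which leave out the cell type markers, and the hyaluronan matrix, cholesterol synthesis and ovulatory factor lists furthest to the right.

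Most genes of the growing, estradiol-producing follicle fell. Of 24 genes for estradiol synthesis and the FSH response, 19 were lower at 6 h and 3 higher, with a median log2 change of −1.55. Cyp19a1 (ENSMUSG00000032274, chromosome 9, 54165937 to 54268110), the aromatase that makes estradiol, had 197, 182 and 194 FPKM at 0 h, 1264, 645 and 1312 at 1 h and 23.1, 18.3 and 20.004 at 6 h. It was thus higher at 1 h than before hCG in all 3 libraries, lowest of them in replicate 2, and at 6 h lower than at either earlier time. From 1 h to 6 h the log2 change was −5.58 ± 0.23 (adjusted p = 1.40e-07), the largest fall among genes that met the naming rule. Hsd17b1, which turns estrone into estradiol, gave 441, 379 and 452 FPKM at 1 h and 79.4, 71.3 and 85.7 at 6 h (−2.41 ± 0.09, adjusted p = 9.47e-08). Of 14 theca and stroma markers tested, 7 were called lower, 6 were not called and 1, Hhip, was higher (2.68 ± 0.19). Among those lower, Cyp17a1, the theca enzyme for the androgen substrate, stood at 263, 122 and 194 FPKM at 1 h and 22.3, 26.8 and 16.7 at 6 h (−3.03 ± 0.28, adjusted p = 1.61e-05). Others fell by less, such as Dcn (−0.87 ± 0.16) and Acta2 (−0.55 ± 0.12).

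Paracrine factors of the growing follicle were lower too. Nppc, the precursor of C-type natriuretic peptide, which holds the oocyte in meiotic arrest, stood at 177, 149.8 and 169 FPKM at 1 h and 6.01, 5.80 and 6.04 at 6 h, with no overlap (−4.58 ± 0.07, adjusted p = 4.64e-10). Inhbb, a subunit of activin B and inhibin B, had 1168, 866 and 1431 FPKM and 134, 107 and 110.2 (−3.27 ± 0.16, adjusted p = 4.34e-07). Kitl, the growth factor that granulosa cells give the oocyte, gave 27.4, 26.6 and 26.4 FPKM at 0 h, 83.5, 84.7 and 82.6 at 1 h and 6.74, 12.7 and 10.9 at 6 h (−2.97 ± 0.17 from 1 h to 6 h, adjusted p = 7.52e-07). Kitl was therefore raised at 1 h and below its starting level at 6 h in every library. Both gonadotropin receptor genes were lower, Fshr at 86.9, 67.5 and 93.5 FPKM at 1 h against 20.2, 19.4 and 21.1 at 6 h (−1.97 ± 0.11, adjusted p = 8.24e-07) and Lhcgr at 388, 255 and 368 against 143, 96.8 and 89.6 (−1.62 ± 0.20, adjusted p = 1.00e-04). The nuclear receptor gene Nr5a2 fell by the same order (−2.19 ± 0.13, adjusted p = 1.11e-06), and so did the D cyclin gene of FSH action, Ccnd2 (−1.68 ± 0.18, adjusted p = 4.03e-05). The 3 members that rose were Gata6 (0.60 ± 0.08), Bex1 (0.48 ± 0.11) and Igf1r (0.25 ± 0.08).

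Steroid output genes moved in several directions. Star, which carries cholesterol into the mitochondrion, stood at 93.3, 108 and 87.8 FPKM at 0 h, 271, 346 and 308 at 1 h and 601, 695 and 523 at 6 h, so each time lay above the one before (0.97 ± 0.13 from 1 h to 6 h, adjusted p = 1.57e-04). Cyp11a1, which cleaves the cholesterol side chain, had 1259, 1183 and 987 FPKM at 1 h and 1238, 1200.2 and 1123 at 6 h, with overlapping libraries and a log2 change of 0.06 ± 0.15 (adjusted p = 0.757). Hsd3b1, the next enzyme towards progesterone, gave 4286, 3194 and 4114 and 2009, 1855 and 1529 FPKM, lower in all 3 libraries at 6 h (−1.10 ± 0.15, adjusted p = 2.56e-04); near-identical Hsd3b copies could share its reads. In cholesterol handling, the efflux pump gene Abca1 (2.03 ± 0.12) and the lipoprotein receptor gene Vldlr (1.84 ± 0.11) rose, and the esterifying enzyme gene Soat1 (−1.37 ± 0.14) fell. The progesterone and cholesterol supply list had 6 of 18 members higher and 4 lower. Sult1e1 (ENSMUSG00000029272, chromosome 5, 87575969 to 87591594), the sulfotransferase that inactivates estrogens, stood at 0.294, 2.33 and 2.68 FPKM at 1 h and 730.2, 975 and 795 at 6 h. All 3 libraries at 6 h were high and all 3 at 1 h near 0, a log2 change of 8.36 ± 0.33 (adjusted p = 1.26e-07), the highest in the comparison among genes meeting the naming rule. Sult1e1 passed the filter on low values only through its 6 h libraries and so had to differ. In the same list Hsd17b11 rose (1.56 ± 0.12, adjusted p = 4.48e-06) and Hsd11b2, which inactivates glucocorticoids, fell from 43.1, 45.6 and 44.4 FPKM to 8.92, 9.04 and 13.6 (−2.003 ± 0.13, adjusted p = 1.62e-06). That list had 2 members higher and 4 lower of 10, and the count lower was 2 when replicate 1 or 2 at 1 h, or replicate 1 at 6 h, was left out. Of the 4 lower, 1 passed the filter on low values only through its 1 h libraries and so had to differ.

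Cholesterol synthesis genes rose together by small steps. Of 22 members tested, 15 were higher and 0 lower, with a median log2 change of 0.49. Lss, the enzyme that closes the sterol ring, had 20.8, 20.6 and 16.8 FPKM at 1 h and 35.96, 37.2 and 36.8 at 6 h (0.89 ± 0.12, adjusted p = 1.55e-04). Msmo1, a sterol methyl oxidase, gave 215, 176 and 181 and 332, 343 and 321 FPKM (0.80 ± 0.08, adjusted p = 3.90e-05), and Mvd of the mevalonate branch 18.2, 16.9 and 16.5 and 26.7, 32.9 and 35.98 (0.85 ± 0.11, adjusted p = 1.59e-04). In none of these did the libraries of the times overlap. Summed over the list, levels were 1630.3 to 1991 FPKM at 1 h and 2436 to 2570.0 at 6 h.

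Genes of the expanding cumulus matrix rose in 7 of 9 members tested and fell in 1, with a median log2 change of 1.27. Lyve1, a hyaluronan receptor best known from lymphatic vessels, stood at 0.530, 0.694 and 0.717 FPKM at 0 h, 0.432, 0.811 and 0.862 at 1 h and 261, 233 and 187 at 6 h. Its 0 h and 1 h libraries overlapped, and the 6 h libraries lay far above both (7.06 ± 0.14 from 1 h to 6 h, adjusted p = 2.68e-09). Lyve1 passed the filter on low values only through its 6 h libraries and so had to differ. Ptx3, which cross-links the matrix, had 4.86, 5.12 and 9.01 FPKM at 1 h and 189.7, 253 and 199 at 6 h (4.91 ± 0.20, adjusted p = 1.40e-07), and Tnfaip6, which transfers heavy chains onto hyaluronan, 11.8, 16.2 and 20.3 and 222, 266 and 214 (3.81 ± 0.21, adjusted p = 6.14e-07). The hyaluronan synthase gene Has2 gave 7.97, 6.92 and 12.6 and 18.2, 27.3 and 19.5 FPKM, a smaller change (1.17 ± 0.20, adjusted p = 9.53e-04) from a level already above its 0 h libraries (0.730, 0.764 and 0.645). Versican, Vcan, was the most abundant member, at 740.2, 415 and 794 FPKM at 1 h and 1905, 2088 and 1996 at 6 h (1.67 ± 0.20, adjusted p = 1.02e-04). The receptor gene Cd44 rose (1.27 ± 0.19), and Itih5, of the heavy-chain family, was the member that fell (16.4, 30.3 and 17.6 to 5.32, 4.98 and 8.17 FPKM; −1.62 ± 0.31, adjusted p = 0.00168). Lyve1 averaged 227 ± 37.5 FPKM at 6 h (mean ± SD, n = 3), and which cells it came from was not tested.

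Transcription factors with known roles in ovulation rose in 8 of 13 cases and fell in 3. Runx1 stood at 18.6, 25.6 and 26.7 FPKM at 1 h and 374, 387 and 343 at 6 h (3.92 ± 0.16, adjusted p = 1.41e-07), and Runx2 54.8, 49.96 and 32.2 and 345, 395 and 378 (3.03 ± 0.24, adjusted p = 6.30e-06). From 0 h to 1 h neither passed the test, with log2 changes of 0.44 ± 0.16 (adjusted p = 0.0939) and 0.10 ± 0.24 (adjusted p = 0.824). Pgr, the progesterone receptor, had 0.254, 0.341 and 0.221 FPKM at 0 h, 15.2, 18.8 and 24.3 at 1 h and 36.8, 44.98 and 37.5 at 6 h (1.02 ± 0.15 from 1 h to 6 h, adjusted p = 3.60e-04). Cebpb gave 74.6, 62.9 and 94.2 FPKM at 1 h and 142, 198 and 466 at 6 h, with 6 h replicate 3 more than 2-fold above the others (1.62 ± 0.38, adjusted p = 0.00527). The hypoxia factor gene Epas1 rose by 1.16 ± 0.08. The coregulator gene Nrip1, needed for ovulation, fell from 97.7, 79.6 and 95.8 FPKM to 29.7, 27.6 and 31.98 (−1.58 ± 0.09, adjusted p = 9.18e-07), and Snai2 fell (−0.76 ± 0.16); the third that fell, Nr5a2, is described above.

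Prostaglandin genes were called in both directions, also within synthesis. Ptgs2, the inducible cyclooxygenase, stood at 1.15, 0.465 and 0.525 FPKM at 0 h, 44.6, 34.5 and 60.2 at 1 h and 112, 154 and 89.5 at 6 h, higher at each time (1.33 ± 0.24 from 1 h to 6 h, adjusted p = 0.00118). Ptgs1, the constitutive form, had 0.445, 0.378 and 0.418 FPKM at 1 h and 10.9, 11.5 and 13.1 at 6 h (3.18 ± 0.11, adjusted p = 5.67e-08). Its 1 h libraries were all below the 1 FPKM of the filter, and 1 rise in this list passed only through its 6 h libraries. The prostaglandin transporter gene Slco2a1 gave 4.79, 3.40 and 6.35 and 36.98, 34.5 and 30.5 FPKM (2.61 ± 0.17, adjusted p = 1.91e-06). Hpgd, which degrades prostaglandins, stood at 35.9, 40.2 and 31.6 and 7.04, 4.70 and 11.4 FPKM (−2.15 ± 0.25, adjusted p = 8.35e-05), and the PGE2 synthase gene Ptges fell as well (−1.76 ± 0.21, adjusted p = 7.94e-05). The receptor gene Ptger4 was high only at 1 h among the 3 times sampled, at 1.08, 1.16 and 1.10 FPKM at 0 h, 33.3, 21.9 and 33.1 at 1 h and 2.59, 2.92 and 1.92 at 6 h (−3.12 ± 0.17, adjusted p = 6.05e-07). Over the list, 5 of 15 members rose and 6 fell.

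Extracellular proteases and their inhibitors divided, 11 higher and 10 lower of 27. Adamts1, which cleaves versican, had 38.9, 38.2 and 41.8 FPKM at 0 h, 294, 213 and 336 at 1 h and 149, 141 and 123 at 6 h, so it was below its 1 h level (−1.002 ± 0.15, adjusted p = 3.24e-04) but above its starting level. Tissue factor, F3, gave 122, 206 and 214 FPKM at 1 h and 29.6, 30.4 and 17.3 at 6 h (−2.76 ± 0.25, adjusted p = 1.38e-05). Those that rose include the inhibitor gene Timp1, from 51.1, 53.3 and 48.05 to 245, 293 and 245 FPKM (2.33 ± 0.17, adjusted p = 4.22e-06), and the protease gene Adamts9, from 24.1, 18.9 and 26.1 to 91.6, 91.1 and 85.6 (1.92 ± 0.13, adjusted p = 1.83e-06). Adam8 (2.17 ± 0.12), the urokinase receptor gene Plaur (1.93 ± 0.12) and Mmp19 (1.62 ± 0.15) rose too.

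Several neuropeptide precursor genes and a gene of vesicle fusion were far higher at 6 h than at 1 h. Nts (ENSMUSG00000019890, chromosome 10, 102481756 to 102490486), the neurotensin precursor, stood at 2.68, 4.78 and 4.06 FPKM at 1 h and 635, 739.6 and 671 at 6 h (7.16 ± 0.16, adjusted p = 3.24e-09). Npy, the neuropeptide Y precursor, was at 0 in every 0 h library and had 0.696, 2.33 and 0.750 FPKM at 1 h and 53.5, 66.4 and 97.7 at 6 h (5.05 ± 0.27, adjusted p = 5.92e-07). Npy passed the filter on low values only through its 6 h libraries and so had to differ. Adcyap1, which encodes PACAP, had 4.28, 2.01 and 1.96 and 50.8, 72.7 and 29.7 FPKM (3.76 ± 0.31, adjusted p = 8.62e-06). For these 3 genes no library at 1 h came near the lowest at 6 h. Penk, the enkephalin precursor gene (2.68 ± 0.09, adjusted p = 5.70e-08), and Tac1, the substance P precursor gene (2.63 ± 0.18, adjusted p = 2.70e-06), rose too. Of 24 listed precursors 12 passed the filter on low values; 6 of those rose and 2 fell. Snap25, a SNARE protein of regulated exocytosis, gave 0.195, 0.122 and 0.126 FPKM at 1 h and 31.2, 28.7 and 32.4 at 6 h (4.79 ± 0.10, adjusted p = 3.24e-09). Its 1 h libraries were all below the 1 FPKM of the filter, and 2 rises in the secretion list passed only through their 6 h libraries. In the secretion list 11 of 22 members rose, among them the syntaxin gene Stx3 (1.80 ± 0.16) and the granin gene Scg2 (1.56 ± 0.15), and 4 fell, among them the calcium sensor gene Syt7 (44.2, 43.4 and 59.8 to 11.3, 10.9 and 13.1 FPKM; −1.96 ± 0.14, adjusted p = 3.02e-06).

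Cytokine and receptor genes rose in 8 of 20 cases and fell in 2, the latter count being 1 without 0 h replicate 2, 1 h replicate 3 or any of the 6 h libraries. Of the members that rose, 6 passed the filter on low values only through their 6 h libraries and so had to differ. The leptin receptor gene Lepr stood at 0.524, 0.711 and 0.568 FPKM at 1 h and 43.5, 57.6 and 47.8 at 6 h (4.98 ± 0.13, adjusted p = 9.26e-09). Cxcr4, the receptor for CXCL12, had 8.86, 14.6 and 9.78 FPKM at 0 h, 109, 49.5 and 89.1 at 1 h and 312, 349 and 287 at 6 h, higher at each time (1.99 ± 0.26 from 1 h to 6 h, adjusted p = 1.68e-04). Il6 was low at 1 h, at 0 in 2 of 3 libraries and 0.204 FPKM in the other, and gave 2.02, 1.87 and 1.36 at 6 h (1.36 ± 0.15, adjusted p = 4.54e-05). Its receptor gene Il6ra (1.27 ± 0.17) and the chemokine gene Cxcl2 (1.24 ± 0.12) rose. Cxcl2 passed the filter only through its 6 h libraries, and all 1 h libraries of Lepr and Il6 were below 1 FPKM. Tnfsf11, which encodes RANKL, was raised at 1 h alone among the sampled times, at 1.11, 1.25 and 1.04 FPKM at 0 h, 20.1, 19.6 and 21.4 at 1 h and 0.977, 1.03 and 0.603 at 6 h (−3.52 ± 0.12, adjusted p = 5.12e-08). Leukocyte markers summed to 25.9 to 40.6 FPKM at 1 h and 19.8 to 27.3 at 6 h, and the cell source of the rises in this list was not tested.

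The unfolded protein response, by which cells raise chaperones and degradation factors when the endoplasmic reticulum is loaded, fell nearly throughout its list. Of 24 members tested, 22 were lower at 6 h and 1 higher, with a median log2 change of −0.76. Sel1l, of the degradation channel, stood at 122, 101 and 132 FPKM at 1 h and 41.1, 40.8 and 40.7 at 6 h (−1.50 ± 0.09, adjusted p = 9.89e-07). Herpud1, of the same machinery, had 57.7, 52.997 and 62.3 and 20.04, 22.6 and 18.7 FPKM (−1.45 ± 0.10, adjusted p = 2.66e-06). The cochaperone gene Dnajb9 gave 36.4, 44.7 and 43.6 FPKM at 0 h, 92.1, 102 and 117 at 1 h and 41.7, 43.9 and 30.7 at 6 h, so the 1 h libraries stood above and the 6 h libraries overlapped those at 0 h (−1.41 ± 0.14, adjusted p = 2.87e-05). Ppp1r15a, which restores translation, went the same way (−1.42 ± 0.11, adjusted p = 6.34e-06), whereas Sel1l ended below its 0 h libraries (103, 99.7 and 104 FPKM). Atf4, the translational stress factor, was the member called higher (0.33 ± 0.10, adjusted p = 0.0219), and that call was lost without replicate 2 at 1 h or replicate 2 at 6 h. Summed over the list, levels were 5611 to 7427 FPKM at 1 h and 3536 to 3912 at 6 h.

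Several of these genes hold a recognisable promoter element, which is why it is printed. The ER stress element (CCAAT and CCACG with 9 bases between them, on either strand) occurred in 0.1187% of all RefSeq promoter windows, in 0.1502% of windows of genes tested and in 36.84% of the windows of the 19 list members matched. The 7 genes that hold it, printed below with the fixed bases in capitals and coordinates in GRCm38.p6, were chosen by the match and lie outside the naming rule; all 7 were among the members called lower.
Calr: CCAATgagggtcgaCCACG (chr8:84847075-84847093, plus strand)
Canx: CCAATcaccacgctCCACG (chr11:50325800-50325818, minus strand)
Creld2: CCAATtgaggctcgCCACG (chr15:88819520-88819538, minus strand)
Dnajc3: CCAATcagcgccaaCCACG (chr14:118937827-118937845, plus strand)
Hsp90b1: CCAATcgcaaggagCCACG (chr10:86705638-86705656, minus strand)
Hsp90b1: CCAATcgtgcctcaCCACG (chr10:86705533-86705551, plus strand)
Hspa5: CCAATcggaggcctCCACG (chr2:34772025-34772043, plus strand)
Pdia6: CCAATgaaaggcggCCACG (chr12:17266491-17266509, plus strand)
Their log2 changes from 1 h to 6 h were −0.83 ± 0.10 for Calr, −0.52 ± 0.07 for Canx, −0.87 ± 0.14 for Creld2, −0.74 ± 0.08 for Dnajc3, −0.84 ± 0.13 for Hsp90b1, −0.88 ± 0.11 for Hspa5 and −0.57 ± 0.11 for Pdia6. Hspa5, the chaperone BiP, stood at 894, 892 and 1193 FPKM at 1 h and 508, 562 and 539 at 6 h, without overlap. A match describes the letters and not the binding of a factor.

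**Figure D4:**
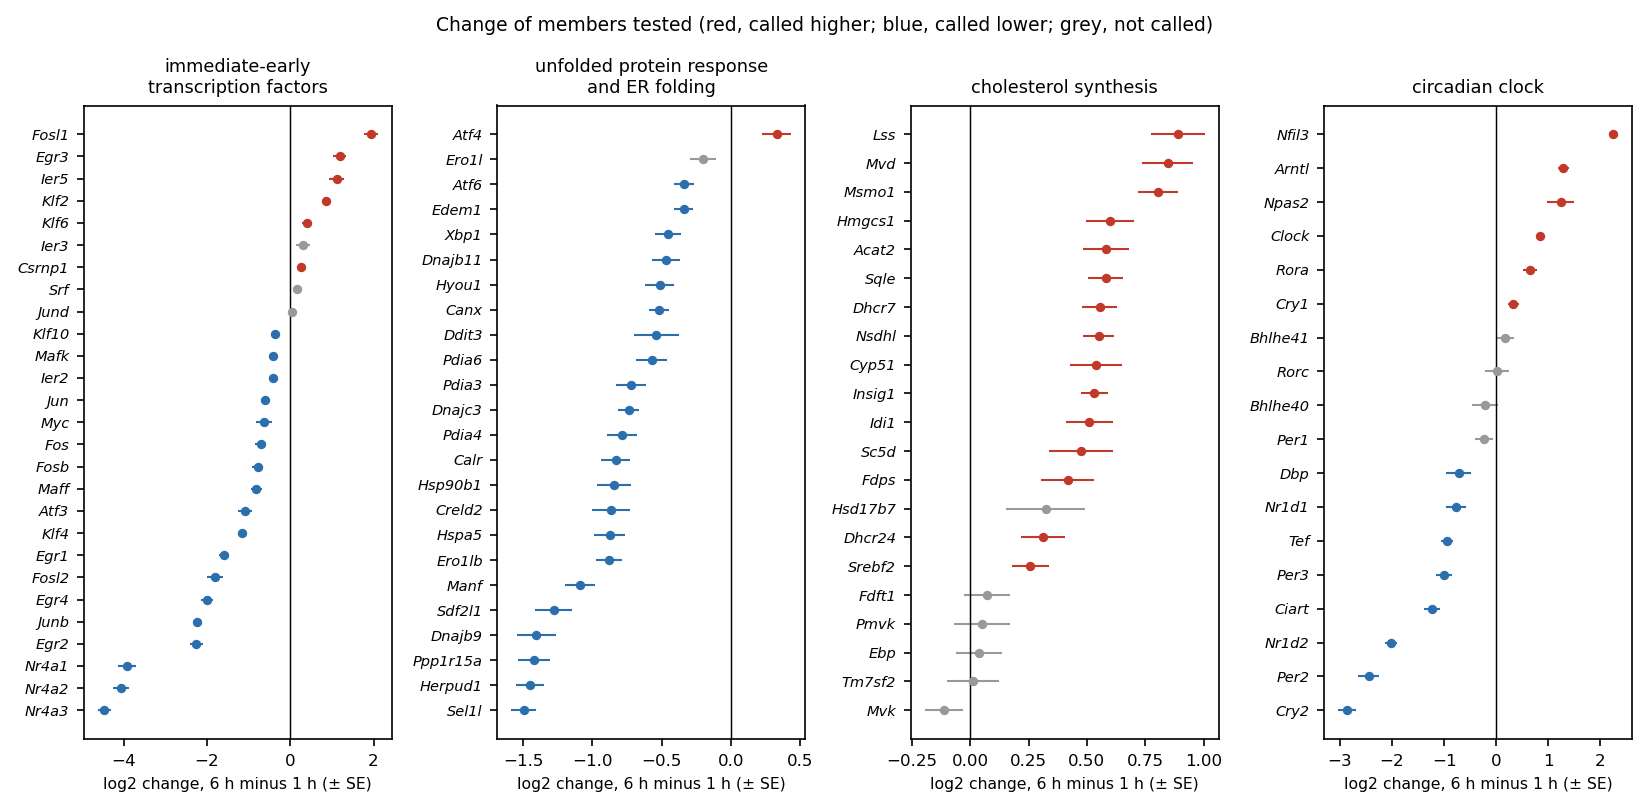
Log2 change from 1 h to 6 h with its SE (x axis) for tested members of 4 lists (y axis): immediate-early factors, unfolded protein response, cholesterol synthesis and circadian clock, with members called higher in red, called lower in blue and not called in grey. Nearly all unfolded protein response members lie left of 0 and most cholesterol synthesis members right of it, while the immediate-early and clock lists spread to both sides.

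Clock genes moved to both sides, 6 of 18 higher and 8 lower, in samples whose hours after hCG are also hours of the day. Among repressors of the clock loop, Cry2 had 14.4, 14.05 and 13.1 FPKM at 0 h, 179, 124 and 215 at 1 h and 20.5, 25.8 and 20.98 at 6 h (−2.86 ± 0.17 from 1 h to 6 h, adjusted p = 1.04e-06), and Per2 20.5, 10.9 and 19.8 at 1 h and 2.33, 2.11 and 2.16 at 6 h (−2.45 ± 0.21, adjusted p = 9.21e-06). The nuclear receptor repressor gene Nr1d2 fell from 22.8, 25.2 and 23.2 FPKM to 6.07, 4.88 and 4.47 (−2.02 ± 0.12, adjusted p = 1.05e-06). Activators of the loop were higher, Arntl at 4.001, 3.33 and 4.38 FPKM at 1 h and 11.1, 11.6 and 10.1 at 6 h (1.29 ± 0.11, adjusted p = 7.63e-06), with Npas2 (1.24 ± 0.25) and Clock (0.84 ± 0.07). Nfil3, a repressor of D-box genes, gave 9.997, 12.4 and 11.8 and 59.3, 59.9 and 54.3 FPKM (2.25 ± 0.09, adjusted p = 1.26e-07). For each of these genes the 1 h and 6 h libraries were apart.

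Few cell cycle genes rose. Of 30 S phase genes 10 fell and 3 rose, and of 28 mitosis genes 10 fell and 1 rose. The nucleotide enzyme gene Dut (−1.16 ± 0.15) and the helicase subunit gene Mcm3 (−1.06 ± 0.17) had the largest falls in S phase, and Ccnb2 (−0.98 ± 0.13) and Mki67 (−0.73 ± 0.10) in mitosis. In the list of cyclin-dependent kinase inhibitors, D cyclins and their kinases 3 of 14 rose and 4 fell. Among inhibitor genes Cdkn1b was lower (−0.32 ± 0.09, adjusted p = 0.0126), Cdkn2d stood at 5.99, 5.57 and 4.37 FPKM at 1 h and 21.3, 22.7 and 19.3 at 6 h (1.81 ± 0.11, adjusted p = 1.31e-06), and Cdkn1a 9.87, 15.3 and 10.6 and 31.8, 36.3 and 31.8 (1.43 ± 0.17, adjusted p = 9.02e-05). Ccng2, a cyclin of arrested cells, was high at 1 h, at 190.3, 120.1 and 189.9 FPKM against 28.8, 34.5 and 28.01 at 6 h (−2.39 ± 0.17, adjusted p = 2.74e-06).

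Transcripts of junction and integrin genes changed in both directions, and cell contacts themselves were not measured. Gja1, which encodes the connexin 43 of granulosa gap junctions, had 2849, 2749.5 and 3099 FPKM at 0 h, 2897, 2648 and 3132 at 1 h and 831, 736 and 780.3 at 6 h (−1.88 ± 0.11 from 1 h to 6 h, adjusted p = 7.16e-07). The 0 h and 1 h libraries overlapped, and all 3 at 6 h were low. Rising members included the claudin gene Cldn1 (0.631, 0.747 and 0.886 to 8.07, 9.96 and 10.6 FPKM; 2.58 ± 0.14, adjusted p = 5.60e-07) and the integrin genes Itga2 (2.09 ± 0.15) and Itga5 (2.02 ± 0.09). The junction and integrin list had 10 members higher and 5 lower of 23, and 3 lower without replicate 2 of either time. In the basement membrane list 10 of 20 fell, led by the laminin gene Lama4 (−1.61 ± 0.14), and 6 rose, led by the type IV collagen genes Col4a2 (1.18 ± 0.18) and Col4a1 (1.17 ± 0.21).

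Growth factor pathways had members called in both directions, at shares of 23.1% to 34.5% a direction that lay near those over all genes (26.7% higher and 26.9% lower). In BMP and TGF-beta signalling 9 of 29 members rose and 10 fell. The BMP target gene Id3 gave 188, 155 and 216 FPKM at 1 h and 47.3, 46.9 and 48.1 at 6 h (−1.94 ± 0.10, adjusted p = 5.58e-07). In WNT signalling 7 of 21 members rose and 7 fell, with the receptor gene Fzd1 at 4.31, 3.84 and 4.05 FPKM at 1 h and 36.9, 50.01 and 36.01 at 6 h (3.04 ± 0.13, adjusted p = 1.51e-07) and the secreted inhibitor gene Sfrp2 higher by 2.80 ± 0.36. The count of WNT genes lower was 4 without 6 h replicate 3 and also 4 with FPKM scaled to the mean sum. The IGF system had 5 members higher, 4 of them binding protein genes led by Igfbp3 (1.30 ± 0.21), and a further binding protein gene, Igfbp2, was lower (−0.59 ± 0.09). The list had 5 members lower, led by the insulin receptor substrate gene Irs1 (−1.24 ± 0.14). Among YAP and Hippo genes, 4 of 13 rose and 3 fell: the angiomotin gene Amotl2 dropped from 118, 54.7 and 103 FPKM to 13.1, 12.2 and 13.3 (−2.67 ± 0.24, adjusted p = 1.35e-05), along with the YAP targets Ctgf (−1.36 ± 0.34) and Cyr61 (−0.70 ± 0.18).

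Vascular, retinoid and protective genes completed the effector lists. In the hypoxia and angiogenesis list 10 of 24 fell, including Angpt2 (−0.70 ± 0.19) and Pdgfb (−0.77 ± 0.14), and 7 rose, led by Angptl4 (11.5, 15.01 and 12.5 to 59.8, 77.7 and 71.7 FPKM; 2.34 ± 0.11, adjusted p = 3.66e-07) and the lymphangiogenic factor gene Vegfc (1.27 ± 0.22). Retinoid genes exchanged enzymes of one family: Aldh1a1, which makes retinoic acid, stood at 89.7, 83.3 and 76.6 FPKM at 1 h and 20.6, 14.5 and 16.5 at 6 h (−2.22 ± 0.14, adjusted p = 1.20e-06), and Aldh1a3 0.342, 0.289 and 0.489 and 7.25, 6.71 and 4.86 (2.39 ± 0.15, adjusted p = 1.54e-06). On the FPKM scale Aldh1a1 was still the higher of the pair at 6 h in every library. Over the retinoid list 6 of 15 rose and 5 fell, and 3 of those that rose, Aldh1a3 among them, passed the filter only through their 6 h libraries.

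Antioxidant, glycolysis and death genes were called in both directions. Mt2 had 81.9, 103 and 92.97 FPKM at 1 h and 545, 759 and 657 at 6 h (2.80 ± 0.16, adjusted p = 7.18e-07), and Gclc, the limiting enzyme of glutathione synthesis, 33.001, 36.02 and 40.5 and 99.6, 106 and 137 (1.61 ± 0.12, adjusted p = 3.46e-06). Of the 25 antioxidant genes 11 rose and 9 fell, the latter including Srxn1 (−1.77 ± 0.17) and the secreted peroxidase gene Gpx3 (−0.997 ± 0.21). Of 20 glycolysis genes 9 fell, among them Pfkm (−1.49 ± 0.13) and Aldoc (−1.22 ± 0.11), and 3 rose, led by the regulator gene Pfkfb4 (6.65, 5.10 and 4.73 to 26.9, 27.1 and 30.4 FPKM; 2.18 ± 0.11, adjusted p = 4.97e-07). In the BCL2 and death list 7 of 17 rose, among them the survival gene Bcl2l1 (1.08 ± 0.13) and the death genes Bad (0.44 ± 0.10) and Casp9 (0.53 ± 0.12), and 5 fell, among them the survival genes Birc2 (−0.66 ± 0.12) and Bcl2 (−0.49 ± 0.17). Heat-shock genes, which also respond to handling of tissue, had 4 of 17 higher and 3 lower. Without 1 h replicate 1 or 6 h replicate 3 the count higher was 2, and without 0 h replicate 1 the count lower was 5.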

How the data were processed

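RNA-seq values of 9 libraries of mouse granulosa cells were used as deposited: FPKM computed by the authors, 54759 transcript-level values per library with a gene identifier, symbol and gene type. The submitters' processing notes list HISAT2 2.0.5 and mm10. What computed the FPKM values, with which annotation and filter, is not given in the sources used here. Read numbers are not given either, so depth is unknown and intervals for counting error cannot be printed. An exact 0 can be a failed estimate. Strand is not stated in the labels' protocols, so overlapping genes and near-identical copies could share reads.

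Values were summed per gene identifier (25059, of which 11778 had more than 1 value and 784 were assembled loci), and 27 symbols stored as dates were restored. GENCODE M21 held 21793 of the 24275 Ensembl identifiers and gave the coordinates. The filter kept 14535 genes that reached 1 FPKM in 3 or more libraries. Their log2(FPKM + 1) values entered limma 3.58.1 (R 4.3.3) in a single fit of 3 group means over 9 libraries, 6 residual degrees of freedom, trended prior variance. A call is an adjusted p (Benjamini-Hochberg) below 0.05. The fit was also run on simulated data, drawn as independent normal values with far fewer changed genes than were called here. That run does not check the calls reported. Log2 changes (± SE) are on that scale, which understates changes of genes with low values. Promoter sequences came from RefSeq (GRCm38.p6).

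The comparison and the gene lists were chosen with earlier results of these data known, so list counts are descriptions and are not independent evidence. Named genes are the 15 highest and the 15 lowest log2 changes in called genes having 5 FPKM or more in the higher group and no overlap between libraries, without predicted, clone or assembled names, then up to 5 called members per list and direction, and 25 fixed ovulation genes; a few genes are not reported here. Comparisons with 0 h share libraries with the comparison reported and are given as values only. Whether a replicate number marks a shared batch or pair is not in the labels. Deviations of same-numbered libraries correlated at 0.11, −0.0783 and 0.0621 between 1 h and 6 h. They correlated at 0.109, 0.0378 and 0.0428 between 0 h and 1 h, and at 0.0457, 0.112 and 0.147 between 0 h and 6 h. For different-numbered libraries the range was −0.1505 to 0.0861. Alternatives were pseudocounts of 0.1 and 5, other filters and scalings, the 6 libraries alone, the most abundant value per gene, a replicate block, and each library left out.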

Additional observations from a re-analysis of the deposited data

How the results depend on the processing

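Depth is unknown, no label names separate animals, and 3 libraries per time limit the precision; genes near 1 FPKM are the least certain, and time of day cannot be told apart from hours after hCG. Over all alternatives run, the count of genes called higher ranged from 3280 to 4420 and of genes called lower from 3371 to 4001; scaling FPKM to the mean sum gave 4420 and 3396 and shifted the median log2 change of all genes by 0.0565, quantile normalization by 0.00769. With a replicate block, 3777 genes were higher and 3855 lower. List counts within 1.5 times of the reported count are not listed. Scaled to the mean sum, WNT genes lower went from 7 to 4, proteasome subunits higher from 15 to 23, mitosis genes higher from 1 to 4, glycolysis genes higher from 3 to 5, ribosomal protein genes higher from 1 to 2, respiratory chain genes higher from 1 to 4 (4 also after quantile normalization) and surface epithelium markers lower from 2 to 1. With the 6 libraries alone the last was also 1, and heat-shock genes lower went from 3 to 5. Cytokine and receptor genes lower went from 2 to 1 when scaled to the mean sum, with the most abundant value per gene, with no filter and with a pseudocount of 5, and under the same 4 settings oocyte markers lower went from 1 to 0. Surface epithelium markers higher went from 0 to 1 with no filter. With the most abundant value per gene, YAP and Hippo genes higher went from 4 to 2 and erythroid markers lower from 1 to 0. Leukocyte markers lower went from 1 to 2 with no filter and with the replicate block. Leaving out each library in turn gave 1 to 3 cytokine and receptor genes lower, 0 to 1 unfolded protein response genes higher, 0 to 1 mitochondrially encoded genes lower, 3 to 6 cAMP pathway genes higher, 3 to 6 junction and integrin genes lower, 1 to 3 respiratory chain genes higher, 2 to 5 heat-shock genes lower, 1 to 2 leukocyte markers lower, 2 to 4 steroid inactivation and conversion lower, 2 to 4 heat-shock and dissociation stress higher, 16 to 31 cytosolic ribosomal proteins lower, 2 to 4 endothelial markers higher, 1 to 2 erythroid markers lower, 0 to 2 surface epithelium markers lower, 2 to 9 oocyte markers higher and 0 to 1 lower, 1 to 2 theca and stroma markers higher, 4 to 9 theca and stroma markers lower and 4 to 8 WNT signalling lower. Among named genes, 208 of 6513 values under alternatives missed the threshold and 1 changed sign: Cyp11a1, not called in the report, had a log2 change of −0.0410 without replicate 3 at 1 h (−0.0410 to 0.134 over the fits that left out 1 library). The cause of these changes was not tested.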

Other observations

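Large gene families not described above were also tested. Zinc finger genes with Zfp symbols, many of them KRAB repressors, were higher at 6 h in 138 of 322 tested cases and lower in 26, with a median log2 change of 0.26. Their summed level was 3046 to 3289 FPKM at 0 h, 2877 to 3068 at 1 h and 3593 to 3636 at 6 h, with the 0 h and 1 h libraries overlapping and the 6 h libraries above both. The median log2 change was −0.26 from 0 h to 1 h and −0.02 from 0 h to 6 h. The median member was thus lower at 1 h and near its 0 h level at 6 h, unlike the sum. Nuclear-encoded genes of the respiratory chain and ATP synthase were lower in 48 of 77 cases and higher in 1, Cox5a (0.57 ± 0.07), with a median of −0.27; in the 13 mitochondrially encoded genes limma called 0 in either direction (0 higher and 1 lower at an unadjusted p under 0.05), and 1 was lower without replicate 1 or 2 at 6 h. Cytosolic ribosomal protein genes were lower in 28 of 80 cases and higher in 1 (median −0.15), a count that dropped to 16 without replicate 1 at 1 h or replicate 1 at 6 h. Proteasome subunit genes rose in 15 of 43 and fell in 5, the latter including Psmb9 of the immunoproteasome (−0.98 ± 0.23). At 1 h, 2 of the 3 libraries had a sum of FPKM above that of every 6 h library; with FPKM scaled to the mean sum, 150 Zfp genes were higher, 40 respiratory chain genes lower and 19 ribosomal protein genes lower.

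Of 191 solute carrier genes tested, 47 rose and 62 fell. Slc7a11, the cystine importer, gave 2.84, 1.94 and 2.67 FPKM at 1 h and 15.6, 23.9 and 31.2 at 6 h (2.78 ± 0.22), while Slc16a1, a lactate and pyruvate transporter, stood at 103, 77.7 and 112 and 20.6, 19.2 and 21.8 (−2.18 ± 0.12). Among genes outside the naming rule, chosen after their values were seen, was a further peptide precursor gene, Nmu (neuromedin U), at 1.64, 3.44 and 3.67 FPKM at 1 h and 43.5, 51.6 and 41.8 at 6 h (3.61 ± 0.21). Chosen in the same way, Ihh, the hedgehog ligand that granulosa cells send to the theca, had 64.9, 73.9 and 71.9 FPKM at 0 h, 84.5, 75.8 and 134 at 1 h and 9.55, 6.12 and 14.6 at 6 h (−3.19 ± 0.27 from 1 h to 6 h). The hedgehog antagonist gene Hhip, in the theca and stroma list, rose from 1.44, 1.14 and 2.22 FPKM at 1 h to 14.6, 12.5 and 19.8 at 6 h (2.68 ± 0.19). Axon guidance genes also chosen after the fact were higher at 6 h: Robo2 at 19.7, 11.6 and 21.9 and 168, 202 and 176 FPKM (3.33 ± 0.19) and Sema3a at 4.71, 2.47 and 3.52 and 31.7, 50.4 and 28.1 (3.03 ± 0.22). Libraries of the 2 times did not overlap for any of these genes, and the limma adjusted p ranged from 7.79e-07 to 9.52e-06.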
